A study of Homo sapiens with 29 samples.

Results

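The p53 target genes described here are 33 of the 23710 gene symbols in the expression table, known from the literature as genes that the transcription factor p53 switches on. They were taken from a list of names with no threshold on a level or a change, although that list was drawn up with earlier results of these data known, and all 33 are in the table. The RNA data are 27 sequencing libraries of 2 human lung cancer lines in established culture, H460 and H2122, with 3 libraries in each of 9 groups. H460 cells carried a short hairpin RNA against GFP (shGFP, the control), NRF2 (shNRF2), NR0B1 (shNR0B1) or SNW1 (shSNW1), and their libraries are labelled 72 h. H2122 cells carried shGFP or shNRF2, with libraries labelled 24 h. Further H460 cells received the solvent DMSO or 30 µM of BPK29 or BPK9, compounds known here only by these codes, for 12 h. The labels give neither the sequence nor the number of hairpins, so each knockdown was treated as a single reagent. They also do not say whether the 3 libraries of a group came from separate cultures, so p-values measure only the spread between libraries, which may be technical.

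NRF2, the product of NFE2L2, drives antioxidant genes and is kept active in both lines by mutations of its inhibitor KEAP1. NR0B1 is an orphan nuclear receptor, while SNW1 acts with transcription factors and in the spliceosome. p53 is kept scarce by the ubiquitin ligase MDM2 and accumulates after DNA damage and other stress. It then binds response elements near genes that restrain p53 itself, arrest the cell cycle, sensitise the cell to death and repair DNA. Many of these genes also answer to other factors.

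RefSeq promoter sequences, 250 bases before to 50 bases after a gene's start in build GRCh38.p14, were available for 26 of the 33 members, with 39 promoters in all. No entry was matched for TNFRSF10A, TNFRSF10B, TP53INP1, RRM2B, PHLDA3, GADD45A or TRIM22. The p53 response element, a pair of 10-base repeats, was searched with the 4-base core of each repeat kept, up to 2 mismatches outside the cores and 0 to 13 bases between the repeats. The element reads the same on both strands, so 1 scan covers both. It was found in 3 of the 39 member promoters (7.69%) and in 512 of all 35093 promoters (1.46%), and without a gap in 2 (5.13%) and 55 (0.16%). The 3 matches are shown because FAS, DDB2 and AEN, which hold them, moved in different directions in several of the comparisons that follow. Capitals mark the 4-base core of each repeat, and each line reads 5′ to 3′ on the plus strand, which is the strand of all 3 genes.
FAS: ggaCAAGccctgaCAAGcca
DDB2: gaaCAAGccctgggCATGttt
AEN: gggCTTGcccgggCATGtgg
The FAS match lies at chr10:88991309-88991328, 122 to 103 bases before 1 of the starts listed for this gene, and has 2 mismatches. The DDB2 match lies at chr11:47214979-47214999, from base 6 to base 26 after 1 of its starts, with 0 mismatches and 1 base between the repeats. The AEN match lies at chr15:88621306-88621325, 34 to 15 bases before the start, with 2 mismatches. A match is a likeness of letters, and binding of p53 was not measured.

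Values are FPKM, read counts per kilobase of transcript scaled for depth. The scaling factors of the knockdown libraries match median ratios taken over all knockdown libraries of both lines. A median ratio is the median over genes of a library's reads relative to each gene's mean. Levels of different genes rest on gene lengths from an annotation that is not given, so ranks between genes are approximate. Whole reads recovered from these values came to 16709893 to 24613434 per knockdown library, and the members held 34 (TRIM22) to 15687 (PERP) reads per library with a median of 1063. No library stood apart, since the lowest correlation between libraries of a group was 0.997. The targeted transcripts were lower in their own knockdowns: NR0B1 stood at 0.382 of the shGFP mean in shNR0B1, SNW1 at 0.63 in shSNW1, and NFE2L2 at 0.621 in H460 and 0.455 in H2122 in shNRF2. NR0B1 also moved in the other knockdowns, to 0.19 of the shGFP mean in H460 shNRF2, 0.0517 in H2122 shNRF2 and 1.26 in shSNW1. NFE2L2 stood at 1.26 of the shGFP mean in shNR0B1 and 1.32 in shSNW1. SNW1 stood at 0.868 in H460 shNRF2, 1.08 in H2122 shNRF2 and 0.995 in shNR0B1. Keratins KRT8, KRT18 and KRT19 stood at 279.7 FPKM or more in all knockdown libraries, while EPCAM and CDH1, markers of epithelial cells, were at most 1.40 and 0.0658 FPKM in H460 and at least 288 and 73.2 in H2122. KRT7, a further keratin, was at most 7.29 FPKM in H460 and at least 1859 in H2122. PTPRC, CD3E and NKG7, defining genes of leukocytes, reached at most 0.0256 FPKM in any knockdown library. The other immune markers listed were detected. CD68 stood at 20.7 to 98.4 FPKM and CD14 at up to 10.9, in H460 shNR0B1. LYZ and CD79A reached 5.41 and 4.76 in H2122 shNRF2.

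The central comparison set the SNW1 knockdown directly against the NR0B1 knockdown in H460, so that the shGFP libraries entered only through the shared estimate of the spread. Members were mostly higher in shSNW1: MDM2, the main inhibitor of p53, stood 1.91 times as high as in shNR0B1, PHLDA3, an inhibitor of AKT signalling, 2.01 times, PLK2, a stress-responsive kinase, 1.9 times and RRM2B, a subunit of ribonucleotide reductase, 1.88 times. In all, 24 of the 33 members were higher in shSNW1, 5 were lower and 4 did not pass the test. The test was limma on log2(FPKM + 1), with a Benjamini-Hochberg adjusted p under 0.05 over all 11938 genes tested. Of those genes 67.8% were called, 33.1% as higher and 34.7% as lower, so a call alone was common. Of the members, 14 of 33 were called with a difference of at least 1.5 fold, as were 12.3% of all genes. The median log2 difference was 0.41 over the members and -0.01 over all genes tested. All differences below are on the log2(FPKM + 1) scale, which understates changes of low genes, with SE over 3 against 3 libraries.

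Set against shGFP, the pair of knockdowns gave these counts. After NR0B1 knockdown 5 members were higher and 22 lower, with a median of -0.24, where 69.8% of all genes were called, 33.1% higher and 36.8% lower. At least 1.5 fold was reached by 5 members, and by 14.1% of all genes. After SNW1 knockdown 16 members were higher and 8 lower, with a median of 0.14, where 67.2% of all genes were called, 30.8% higher and 36.4% lower. At least 1.5 fold was again reached by 5 members, and by 12.3% of all genes. With libraries scaled to a common total the NR0B1 split was 6 higher and 18 lower with a median of -0.17, where 40.2% of all genes were higher and 30.1% lower. The SNW1 split was then 23 higher and 7 lower with a median of 0.21, where 38.5% of all genes were higher and 29.6% lower. The 7 members added to the higher ones by that scaling were RPS27L, PPM1D, PLK2, XPC, DDB2, POLH and FDXR, and calls of MDM4, TRIAP1, GADD45A and SESN1 in shNR0B1 and of MDM4 in shSNW1 were lost with it. Both comparisons use the same shGFP libraries, so their values are given side by side and not as separate evidence.

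**Figure D1:**
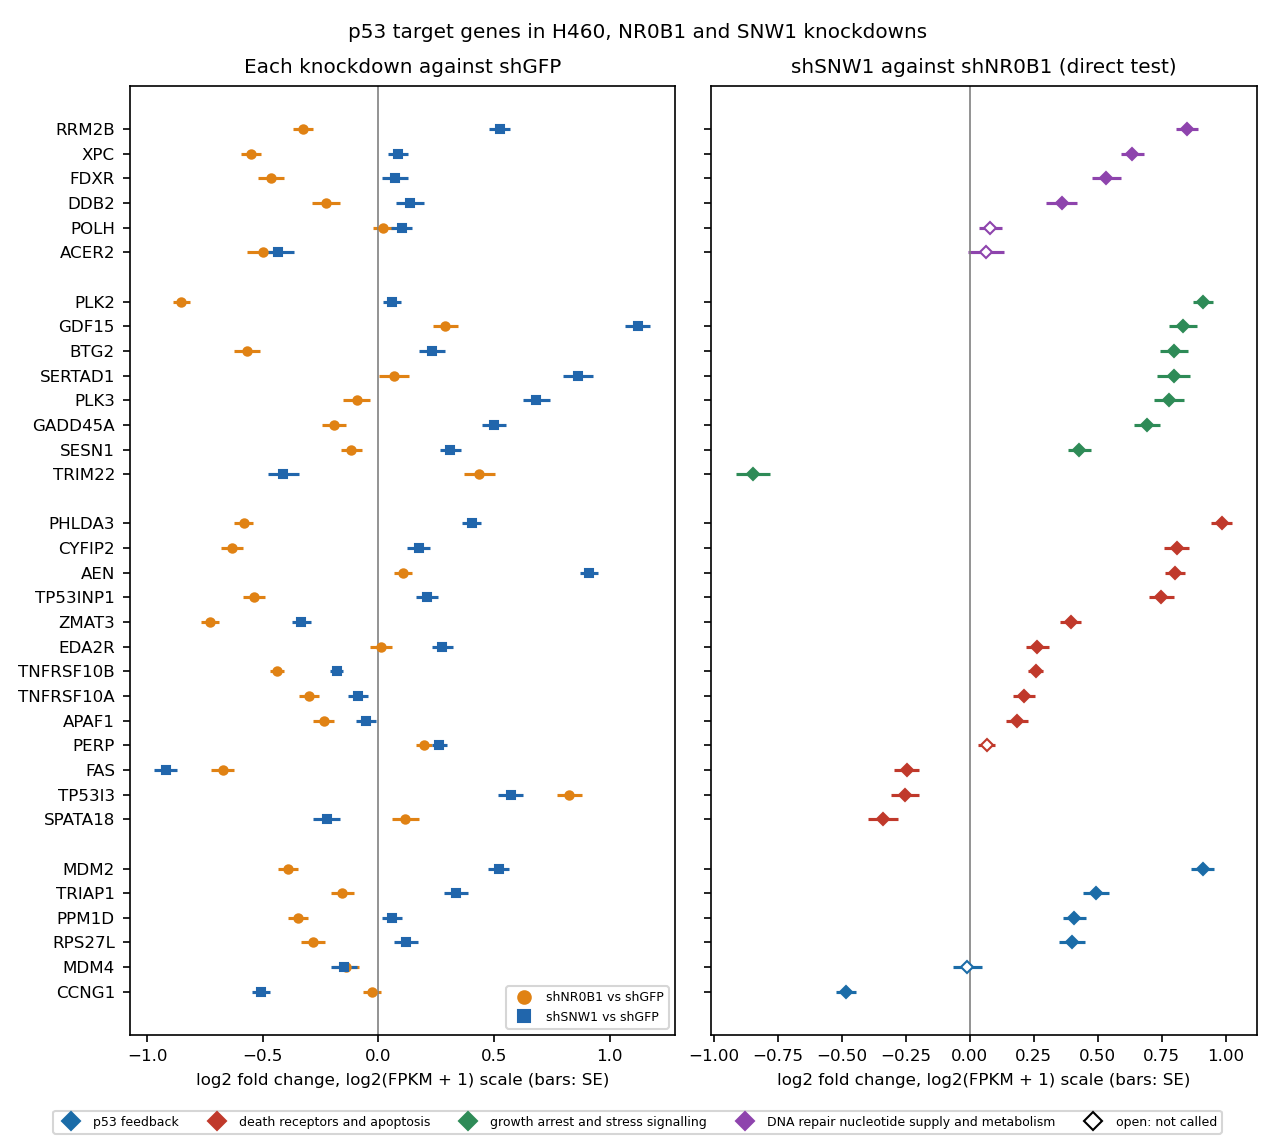
Log2 fold changes of the 33 members (log2(FPKM + 1) scale) after NR0B1 knockdown (circles) and SNW1 knockdown (squares) against shGFP in H460 on the left, and of shSNW1 against shNR0B1 on the right. Points are fits over 3 against 3 libraries, bars are SE, genes are grouped by role and open diamonds did not pass the test; 24 diamonds are filled on the right of 0 and 5 on the left.

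Among the 6 genes that feed back on p53, 4 were higher in shSNW1 than in shNR0B1, 1 was lower and 1 did not pass the test. MDM2 stood at 36.7, 37.5 and 32.8 FPKM in shGFP, 27.2, 26.2 and 27.4 in shNR0B1 and 52.5, 50.4 and 51.6 in shSNW1. All 3 shNR0B1 libraries were below the control libraries and all 3 shSNW1 libraries above them, with a direct difference of 0.91 ± 0.0444 (limma adjusted p = 1.17e-09). PPM1D, the phosphatase WIP1 that removes activating phosphates from p53 and its kinases, stood at 7.21, 6.92 and 7.31 in shGFP, 5.6, 5.45 and 5.14 in shNR0B1 and 7.63, 7.44 and 7.39 in shSNW1. Here the shSNW1 libraries lay just above the controls (0.06 ± 0.0442, limma adjusted p = 0.248), and the direct difference of 0.41 ± 0.0442 stood beside the low shNR0B1 values (limma adjusted p = 2.49e-06). RPS27L, a ribosomal protein paralog linked to p53 stability, and TRIAP1, a small inhibitor of apoptosis, differed by 0.40 ± 0.0507 and 0.49 ± 0.0511. CCNG1, cyclin G1, which recruits a phosphatase to MDM2, went the other way. Its FPKM were 147, 141 and 135 in shGFP, 145, 132 and 139 in shNR0B1 and 101, 98.9 and 96.7 in shSNW1, so only the shSNW1 libraries lay clear of the controls (-0.48 ± 0.0392 between the knockdowns, limma adjusted p = 1.56e-07). MDM4, the MDM2 relative that masks p53, differed by -0.01 ± 0.0565 (limma adjusted p = 0.895). Its small falls against shGFP of -0.14 and -0.15 overlapped the control libraries. The call in shNR0B1 was lost without shGFP replicate 1 or 2, shNR0B1 replicate 1 or 3, shNRF2 replicate 3 or shSNW1 replicate 1 (log2 -0.14 to -0.09, limma adjusted p = 0.0504 to 0.184), and the call in shSNW1 without shGFP replicate 1 or 2 or shSNW1 replicate 1 or 2 (log2 -0.15 to -0.10, limma adjusted p = 0.0596 to 0.15). TRIAP1 was called lower in shNR0B1 (-0.16 ± 0.0511), a call lost without shGFP replicate 1 or shNR0B1 replicate 2 (log2 -0.13 to -0.09, limma adjusted p = 0.0614 to 0.0681).

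**Figure D2:**
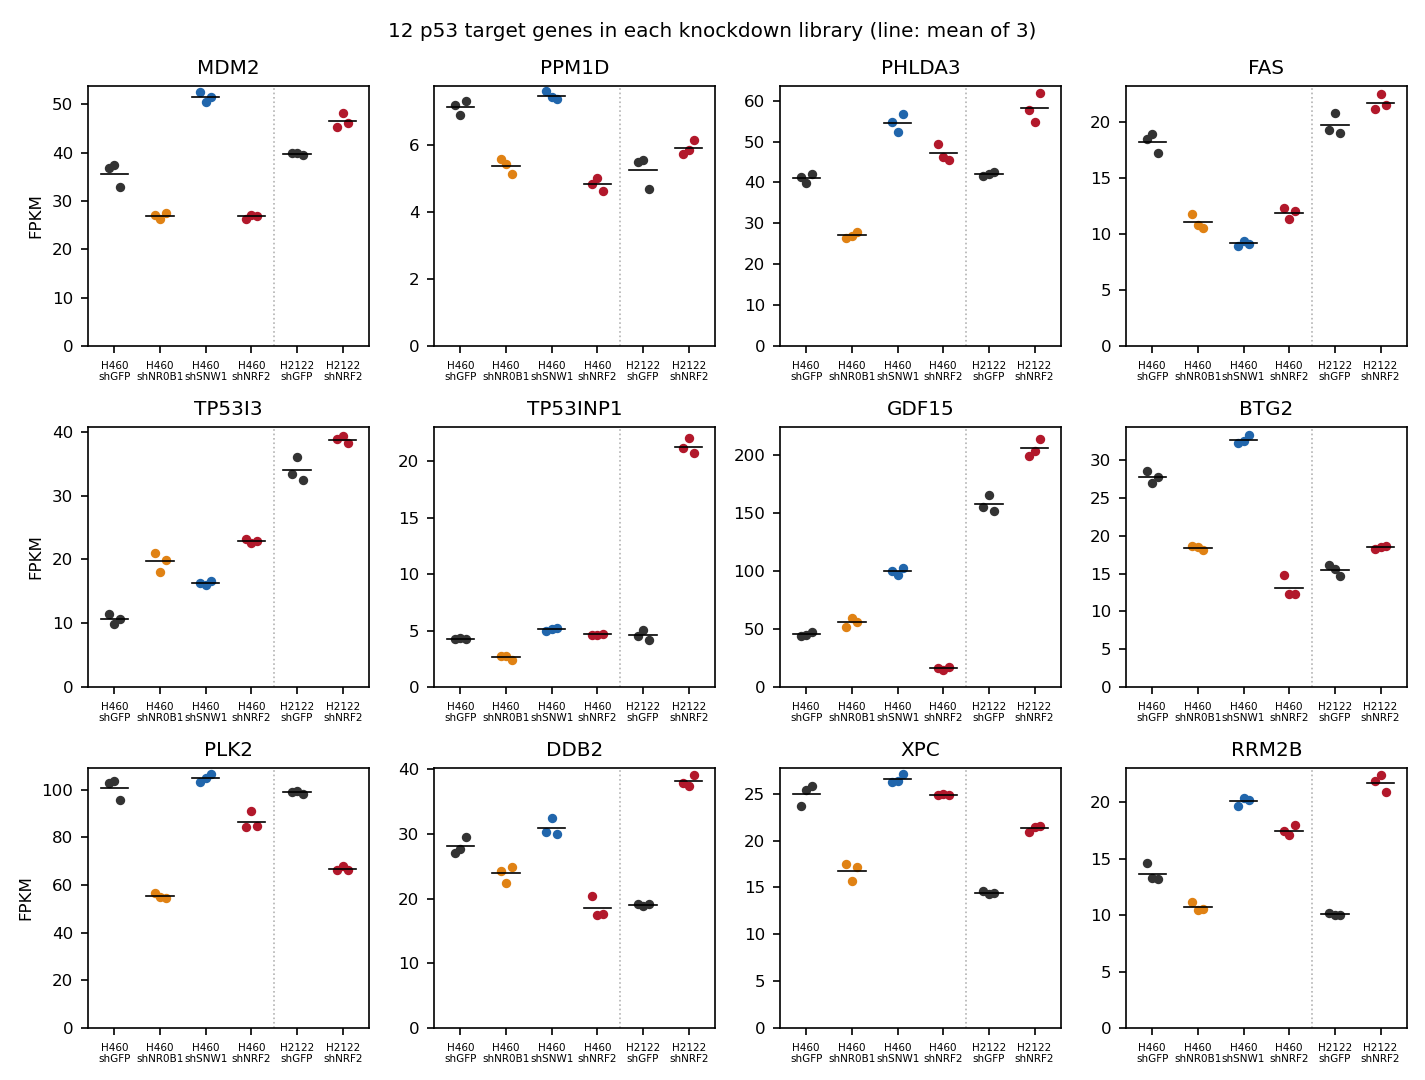
FPKM (linear axes from 0) of 12 members in each of the 18 knockdown libraries, grouped by line and hairpin, with H460 left and H2122 right of the dotted line; points are libraries and lines are means of 3. In MDM2, PHLDA3, BTG2, PLK2 and RRM2B the shSNW1 points lie above the shNR0B1 points, in FAS and TP53I3 below them, and TP53INP1 is high only in H2122 shNRF2.

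Of the 13 death receptor and apoptosis genes, 9 were higher in shSNW1 than in shNR0B1, 3 were lower and 1 did not pass the test. PHLDA3 stood at 41.2, 39.9 and 42 FPKM in shGFP, 26.4, 27 and 27.9 in shNR0B1 and 54.8, 52.3 and 56.7 in shSNW1. The groups did not overlap, and its difference of 0.98 ± 0.0413 was the largest rise among the members in this contrast (limma adjusted p = 3e-10). CYFIP2, a cytoskeletal regulator of the WAVE complex, and TP53INP1, a protein of stress-induced death and autophagy, were likewise low in shNR0B1 and slightly high in shSNW1. CYFIP2 stood at 14.2, 15.4 and 15.7 in shGFP, 9.51, 9.07 and 9.46 in shNR0B1 and 16.3, 17.3 and 17.8 in shSNW1, and the knockdowns differed by 0.81 ± 0.0492. TP53INP1 stood at 4.23, 4.35 and 4.24, 2.76, 2.75 and 2.4 and 4.94, 5.11 and 5.26 in the same order, with a difference of 0.75 ± 0.0486. AEN, an apoptosis-enhancing nuclease, was different in that shNR0B1 stayed near the control while shSNW1 was high. It stood at 23.4, 22.3 and 22.9 in shGFP, 24.6, 24 and 25.4 in shNR0B1 and 43.7, 43.4 and 44.3 in shSNW1 (0.80 ± 0.039 between the knockdowns). The small rise of AEN in shNR0B1 (0.11 ± 0.039) was no longer called without shGFP replicate 2 or shNR0B1 replicate 1 or 3 (log2 0.08 to 0.11, limma adjusted p = 0.0512 to 0.111).

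FAS, the receptor of the death ligand FASLG, was low in both knockdowns. Its FPKM were 18.5, 18.9 and 17.2 in shGFP, 11.8, 10.8 and 10.5 in shNR0B1 and 8.95, 9.32 and 9.12 in shSNW1, and no knockdown library reached the control range. The fall was larger in shSNW1 (-0.92 ± 0.0498) than in shNR0B1 (-0.67 ± 0.0498), with a tested difference of -0.25 ± 0.0498 (limma adjusted p = 0.000627). The TRAIL receptors TNFRSF10A and TNFRSF10B were 0.21 ± 0.0432 and 0.26 ± 0.029 higher in shSNW1 than in shNR0B1, with values against shGFP of -0.30 and -0.44 in shNR0B1 and of -0.09 (limma adjusted p = 0.0819) and -0.18 in shSNW1. ZMAT3, an RNA-binding protein of splicing control, fell in both knockdowns (-0.73 ± 0.04 in shNR0B1, -0.33 ± 0.04 in shSNW1) and was 0.39 higher in shSNW1. TP53I3, an oxidoreductase linked to oxidative stress, stood at 11.4, 9.9 and 10.7 in shGFP, 21.1, 18 and 19.95 in shNR0B1 and 16.3, 16 and 16.7 in shSNW1. It rose in both, and less in shSNW1 (-0.25 ± 0.0554 between them). SPATA18, a protein of mitochondrial quality control, was -0.34 ± 0.0575 lower in shSNW1. EDA2R, a receptor of the TNF receptor family, and APAF1, the scaffold of the apoptosome, were 0.26 and 0.18 higher. PERP, a membrane protein of desmosomes and apoptosis, rose in both knockdowns by 0.20 and 0.26, and its direct difference was 0.07 ± 0.0333 (limma adjusted p = 0.0961).

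Of the 8 genes of growth arrest and stress signalling, 7 were higher in shSNW1 than in shNR0B1 and 1, TRIM22, was lower, each by at least 1.5 fold on the FPKM + 1 scale except SESN1. GDF15, a secreted stress cytokine, stood at 44.2, 44.4 and 47.4 FPKM in shGFP, 51.6, 59.1 and 56.1 in shNR0B1 and 100.3, 96.7 and 102 in shSNW1. It rose in both knockdowns without overlap, and further in shSNW1 (0.83 ± 0.054, limma adjusted p = 1.69e-08). PLK2 stood at 103, 104 and 95.9 in shGFP, 56.7, 55 and 54.4 in shNR0B1 and 103, 105 and 107 in shSNW1. In PLK2 the shNR0B1 libraries alone were low, and the knockdowns differed by 0.91 ± 0.0381 (limma adjusted p = 2.95e-10). PLK3, a related kinase, showed the reverse, with 6, 5.84 and 5.28 in shGFP, 5.2, 5.67 and 4.98 in shNR0B1 and 9.89, 9.46 and 9.92 in shSNW1 (0.78 ± 0.059 between the knockdowns). SERTAD1, a regulator of CDK4 and E2F activity, likewise was high in shSNW1 alone, at 11.2, 9.18 and 9.9 against 5.22, 5.13 and 4.88 in shGFP and 5.38, 5.36 and 5.35 in shNR0B1 (0.80 ± 0.0643). BTG2, an antiproliferative partner of the CCR4-NOT deadenylase, stood at 28.5, 27 and 27.8 in shGFP, 18.7, 18.5 and 18.1 in shNR0B1 and 32.4, 32.5 and 33.4 in shSNW1 (0.80 ± 0.0558). GADD45A, a stress sensor that inhibits the mitotic kinase complex, differed by 0.69 ± 0.0518, and SESN1, a sestrin that dampens mTORC1, by 0.43 ± 0.0453. SESN1 was called slightly lower in shNR0B1 (-0.12 ± 0.0453), a call lost without shGFP replicate 1 or 2 or shNR0B1 replicate 2 or 3 (log2 -0.11 to -0.10, limma adjusted p = 0.0891 to 0.105). TRIM22, an antiviral ubiquitin ligase also induced by interferon, was the member with the fewest reads. It stood at 1.94, 2.12 and 1.85 in shGFP, 3.01, 3.18 and 2.87 in shNR0B1 and 1.12, 1.24 and 1.33 in shSNW1, and differed by -0.85 ± 0.0659 (limma adjusted p = 1e-07).

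Of the 6 genes of DNA repair, nucleotide supply and metabolism, 4 were higher in shSNW1 than in shNR0B1 and none was lower. RRM2B stood at 14.6, 13.3 and 13.2 FPKM in shGFP, 11.1, 10.5 and 10.5 in shNR0B1 and 19.7, 20.4 and 20.2 in shSNW1, low in one and high in the other (0.85 ± 0.0435, limma adjusted p = 1.73e-09). XPC, which recognises DNA lesions in nucleotide excision repair, stood at 23.7, 25.5 and 25.9 in shGFP, 17.5, 15.7 and 17.1 in shNR0B1 and 26.2, 26.4 and 27.1 in shSNW1. FDXR, the ferredoxin reductase of mitochondrial steroid and iron-sulfur synthesis, stood at 32.1, 32.7 and 36.7, 24.2, 23.6 and 24.9 and 36, 33 and 37.8 in the same order. In both genes the shNR0B1 libraries were below the controls, and shSNW1 did not pass the test against shGFP (XPC 0.09 ± 0.0441, limma adjusted p = 0.103; FDXR 0.07 ± 0.056, limma adjusted p = 0.275). Both were called with a common total (XPC 0.16, limma adjusted p = 0.00441; FDXR 0.15, limma adjusted p = 0.0299), and FDXR also without shGFP replicate 3 (0.13, limma adjusted p = 0.0414). The direct differences were 0.64 ± 0.0441 for XPC, 0.53 ± 0.056 for FDXR and 0.36 ± 0.0603 for DDB2, the damage-binding partner of XPC in repair. POLH, a DNA polymerase that copies past lesions, differed by 0.08 ± 0.0452 (limma adjusted p = 0.133), or 0.12 with voom (limma adjusted p = 0.0406). ACER2, an alkaline ceramidase, fell in both knockdowns (-0.50 ± 0.0692 and -0.44 ± 0.0692), with a difference between them of 0.06 ± 0.0692 (limma adjusted p = 0.435).

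Further p53 targets outside the list, and regulators of p53, were counted in the same contrast. Of 36 other reported targets tested, 20 were higher in shSNW1 than in shNR0B1 and 8 were lower, with a median of 0.20. Of all genes tested 33.1% were higher and 34.7% lower, with a median of -0.01. CDKN1A, the cyclin-dependent kinase inhibitor p21, stood at 46.4, 44.8 and 46.8 FPKM in shGFP, 57.9, 55.2 and 57.5 in shNR0B1 and 133, 127 and 133 in shSNW1, and differed by 1.19 ± 0.041. The apoptosis gene BBC3 (PUMA) was 0.77 ± 0.0561 and the stress factor ATF3 0.71 ± 0.0848 higher in shSNW1, while FUCA1, a lysosomal fucosidase, was lower (-0.67 ± 0.0405). The apoptosis gene PMAIP1 (NOXA) differed by -0.06 ± 0.0451 (limma adjusted p = 0.261). Of 23 regulators and partners of p53 tested, 13 were higher and 2 lower, with none past 1.5 fold, a size reached by 12.3% of all genes. RCHY1, a ubiquitin ligase of p53, was 0.56 ± 0.0579 and HIPK2, a kinase of p53, 0.52 ± 0.0536 higher, and the checkpoint kinases CHEK2 (-0.39 ± 0.0435) and ATM (-0.36 ± 0.0641) were lower. Among cell type markers, the summed level of 7 fibroblast and endothelial genes was 15.5 to 16.6 FPKM in shNR0B1, 5.98 to 6.39 in shSNW1 and 7.17 to 7.90 in shGFP, with PECAM1, VWF and CDH5 at most 0.0197 in these groups. The summed level of 6 epithelial genes was 1203 to 1229 FPKM in shNR0B1, 1888 to 1947 in shSNW1 and 1978 to 2256 in shGFP. Among 7 immune markers CD14, a monocyte receptor, stood at 10.4 to 10.9 FPKM in shNR0B1, 2.597 to 2.61 in shSNW1 and 4.89 to 6.06 in shGFP (log2 -1.701 between the knockdowns), and their summed level was 34.6 to 38.5, 28.8 to 30 and 29.1 to 33.1 FPKM. The part of these shifts in the members' differences was not tested. In bulk RNA, fewer cells of a state and less RNA per cell cannot be told apart.

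NRF2 knockdown was available in both lines, and the members responded differently in them. In H460, 11 members rose and 17 fell, with a median log2 fold change of -0.15, where 79.8% of 11938 genes were called, 40.9% higher and 39% lower. In H2122, 25 members rose and 4 fell, with a median of 0.27, where 87.3% of 11710 genes were called, 48.8% higher and 38.5% lower, and the median of all genes was 0.09. The 25 include TRIM22, which passed the minimum level there only through shNRF2, where it was high. Changes of at least 1.5 fold were called for 7 members in H460 (31.4% of all genes) and for 9 in H2122 (41.8%). Scaling the H2122 libraries by median ratios among themselves lowered the median of all genes, which fell by 0.14 to -0.04, and gave 20 members higher and 6 lower with a median of 0.13, where 40.4% of all genes were higher and 45.8% lower. The voom test on recovered reads gave 20 and 8 with a median of 0.15, where 41.8% of all genes were higher and 42.9% lower. Tested as a difference between the lines, 26 members responded more upward in H2122 and 4 more downward, with a median of 0.37. In that test 71.6% of 12798 genes were called, 37.4% as more upward and 34.3% as more downward, and the median of all genes was 0.02. The difference was at least 1.5 fold in 16 members and in 28.4% of all genes. The lines were also sampled at different times, 72 h and 24 h, so line and time cannot be told apart.

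**Figure D3:**
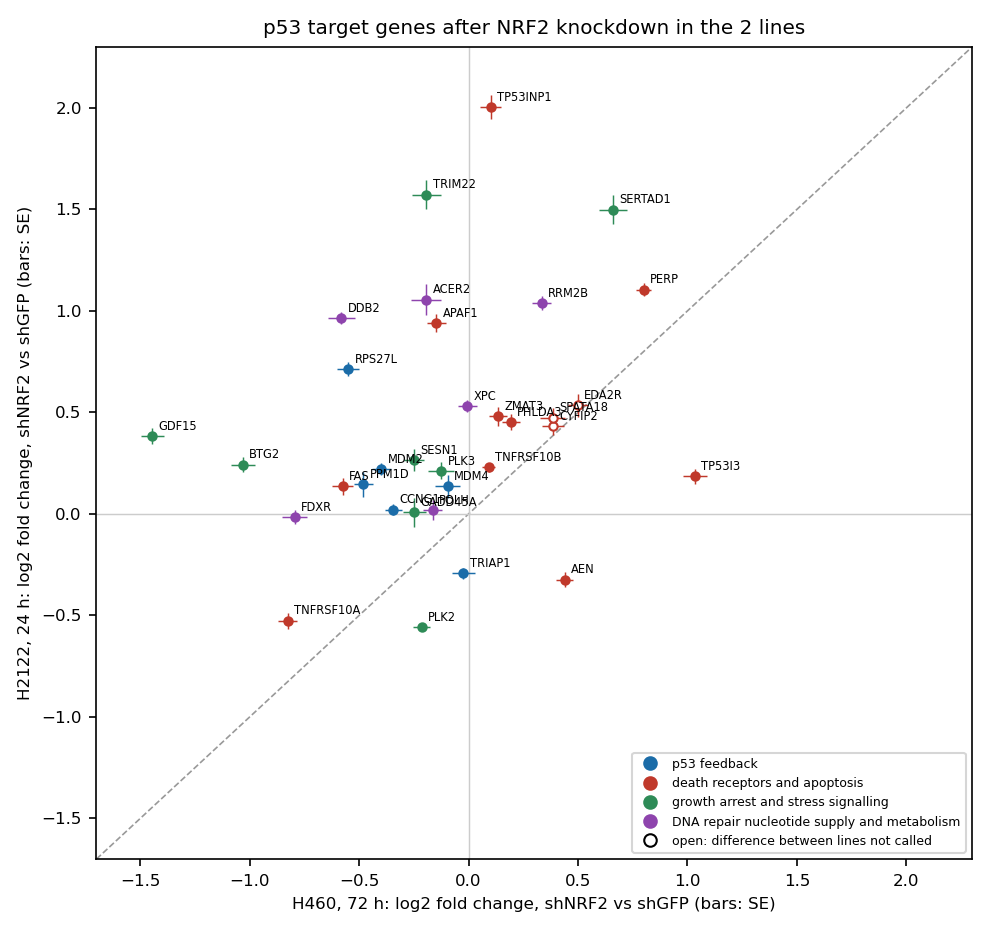
Log2 fold change of each member after NRF2 knockdown in H460 (x axis, 72 h) and H2122 (y axis, 24 h), on the log2(FPKM + 1) scale with SE bars, coloured by role; the dashed line marks equal change. 26 filled points above the line responded more upward in H2122 and 4 below it (TP53I3, AEN, PLK2 and TRIAP1) more downward, and 3 open points did not pass the test of the difference.

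Several growth arrest and repair genes moved in opposite directions in the lines. GDF15 had FPKM of 44.2, 44.4 and 47.4 in shGFP and 16.4, 14.8 and 16.8 in shNRF2 of H460, and of 155, 166 and 152 in H2122 shGFP and 199, 203 and 214 in H2122 shNRF2. It fell in H460 (-1.44 ± 0.054) and rose in H2122 (0.38 ± 0.0376), a difference of 1.83 ± 0.0699 (limma adjusted p = 1.47e-10). DDB2 fell from 27.1, 27.6 and 29.6 to 20.4, 17.5 and 17.6 in H460 (-0.58 ± 0.0603) and rose from 19.1, 18.9 and 19.1 to 37.8, 37.4 and 39.1 in H2122 (0.96 ± 0.0277). BTG2 fell from 28.5, 27 and 27.8 to 14.8, 12.2 and 12.3 in H460 and rose from 16.1, 15.6 and 14.7 to 18.2, 18.6 and 18.6 in H2122. For both genes, the treated and control libraries did not overlap in either line, and the lines differed by 1.55 ± 0.0741 for DDB2 and 1.27 ± 0.0833 for BTG2. The rise of BTG2 in H2122 was 0.24 ± 0.0374 as deposited and 0.0975 after the median-ratio scaling (limma adjusted p = 0.0353), where DDB2 rose by 0.82. TRIM22 stood at 0.717, 0.59 and 0.486 FPKM in H2122 shGFP and 3.5, 3.96 and 3.79 in H2122 shNRF2, and the means differed 6.27 fold. Its log2 value of 1.57 ± 0.0705 understates this at such low levels. All H2122 shGFP libraries were under 1 FPKM, so TRIM22 passed the minimum level of that fit only through shNRF2, where it was high. Its call there is not support for a rise. Its change in H460 was -0.19 ± 0.0659, a call lost without shGFP replicate 2 or shNRF2 replicate 2 or 3 (log2 -0.18 to -0.15, limma adjusted p = 0.0516 to 0.0716). ACER2 rose by 1.06 ± 0.0753 in H2122, with -0.19 ± 0.0692 in H460, where the call was lost without shGFP replicate 1 or 2 or shNRF2 replicate 3 (log2 -0.18 to -0.15, limma adjusted p = 0.0588 to 0.0856). RRM2B rose in both lines, by 0.33 in H460 and 1.04 in H2122, as did SERTAD1, by 0.66 and 1.499. FDXR fell in H460 (-0.79 ± 0.056), with -0.02 ± 0.034 in H2122 (limma adjusted p = 0.654), or -0.16 after the median-ratio scaling (limma adjusted p = 0.00134). PLK2 fell in both, by -0.21 in H460 and -0.56 in H2122.

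Apoptosis genes were divided. TP53INP1 stood at 4.48, 5.06 and 4.17 FPKM in H2122 shGFP and 21.2, 22.1 and 20.7 in H2122 shNRF2, a ratio of means of 4.66. In H460 the libraries stood at 4.23, 4.35 and 4.24 in shGFP and 4.63, 4.64 and 4.7 in shNRF2, and the rise of 2.00 ± 0.0581 in H2122 differed from the 0.10 ± 0.0486 in H460 by 1.90 ± 0.0738 (limma adjusted p = 1.71e-10). APAF1 rose in H2122 from 6.75, 7.23 and 6.64 to 13.9, 14.8 and 13.7 and fell slightly in H460 (-0.15 ± 0.0443). PERP rose in both lines, from 67.4, 65.7 and 61.5 to 114, 115 and 112 in H460 and from 74.5, 79.1 and 73.2 to 162, 165 and 164 in H2122. TP53I3 and AEN rose more in H460. TP53I3 went from 11.4, 9.9 and 10.7 to 23.2, 22.5 and 22.9 in H460 (1.03 ± 0.0554) and from 33.5, 36 and 32.5 to 38.9, 39.3 and 38.3 in H2122 (0.19 ± 0.0373, no longer called after median-ratio scaling, 0.04 with limma adjusted p = 0.376). AEN rose in H460 (0.44 ± 0.039) and fell in H2122 (-0.32 ± 0.0353). TNFRSF10A fell in both lines, by -0.83 in H460 and -0.53 in H2122. FAS fell in H460 (-0.58 ± 0.0498), and its value in H2122 was 0.14 ± 0.0406 as deposited and -0.01 after the median-ratio scaling. EDA2R, CYFIP2 and SPATA18 rose in both, and their differences between lines did not pass the test (limma adjusted p = 0.688, limma adjusted p = 0.552 and limma adjusted p = 0.24).

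Of the feedback genes, RPS27L had the widest contrast, with 120.2, 117 and 107 in H460 shGFP, 75.5, 75.5 and 83.2 in H460 shNRF2, 96.9, 103 and 100.4 in H2122 shGFP and 158, 169 and 168 in H2122 shNRF2. It fell in H460 (-0.55 ± 0.0507) and rose in H2122 (0.71 ± 0.0336), without overlap in either line. MDM2 moved the same way on a smaller scale, from 36.7, 37.5 and 32.8 to 26.3, 27.2 and 26.9 in H460 and from 39.98, 39.8 and 39.5 to 45.2, 48.2 and 46.2 in H2122, a difference of 0.62 ± 0.062. The rise of MDM2 in H2122 was 0.22 ± 0.0283 as deposited and 0.0706 after the median-ratio scaling (limma adjusted p = 0.0351). PPM1D fell in H460 (-0.48 ± 0.0442). Its rise in H2122 (0.15 ± 0.0616) was lost without shGFP replicate 3 or shNRF2 replicate 1, 2 or 3 (log2 0.08 to 0.16, limma adjusted p = 0.0584 to 0.168), as was that of MDM4 (0.14 ± 0.0566) without shGFP replicate 1 or 2 or shNRF2 replicate 1, 2 or 3 (log2 0.10 to 0.15, limma adjusted p = 0.0672 to 0.155). With the median-ratio scaling their values were 0.0156 for PPM1D (limma adjusted p = 0.821) and 0.0359 for MDM4 (limma adjusted p = 0.573), and with a replicate block neither was called (limma adjusted p = 0.0678 and limma adjusted p = 0.0652). CCNG1 fell in H460 (-0.34 ± 0.0392), and in H2122 its value was 0.02 ± 0.0294 as deposited (limma adjusted p = 0.497) and -0.13 after the median-ratio scaling (limma adjusted p = 0.00214). Of the other reported targets, 10 rose and 16 fell of 36 in H460, where 40.9% of all genes were higher and 39% lower. In H2122, 27 rose and 10 fell of 38, where 48.8% of all genes were higher and 38.5% lower. The median of all genes in H2122 was 0.09 as deposited and -0.04 after the median-ratio scaling. PMAIP1 fell by -2.02 in H460 and rose by 0.60 in H2122, while SFN, the checkpoint protein 14-3-3 sigma, fell in both (-1.20 and -2.02). CDKN1A rose in both lines, from 46.4, 44.8 and 46.8 to 89.3, 80.1 and 81.8 in H460 and from 124, 130.5 and 123 to 273, 286 and 286 in H2122. Beside these rises in H2122, the summed level of 7 immune markers was 46.2 to 47.5 FPKM in shGFP and 105 to 109 in shNRF2. CD68, LYZ and CD79A carried this sum, while PTPRC was at most 0.00607 FPKM there and CD3E and NKG7 were at 0. The summed level of the 6 epithelial genes in H2122 was 4425 to 4485 FPKM in shGFP and 6505 to 6795 in shNRF2, and that of the 7 fibroblast and endothelial genes 9.44 to 10.4 and 14.0 to 14.6. In H460 the latter sum was 7.17 to 7.90 in shGFP and 13.9 to 14.9 in shNRF2, where DCN, a matrix proteoglycan, stood at 9.75 to 11.1 against 0.603 to 0.929. The epithelial sum there was 1978 to 2256 and 2060 to 2173, and the immune sum 29.1 to 33.1 and 28.4 to 31.9. The part of these shifts in the members' changes was not tested.

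The resting levels of the members also differed between the lines. In the shGFP libraries the members ranged from 1.97 FPKM (TRIM22) to 141 (CCNG1) in H460, with a median of 18.2, and from 0.598 (TRIM22) to 157 (GDF15) in H2122, with a median of 15.5. In this contrast 11 members were higher in H2122 and 16 lower, where 85.7% of 12087 genes were called, 44.6% higher and 41.1% lower. The 16 include TRIM22, which passed the minimum level only through the H460 libraries, where it was higher. Of the members 12 differed by at least 1.5 fold, as did 45.1% of all genes. GDF15 was the highest member in H2122 and the seventh in H460, and stood 3.47 times as high in H2122 (1.77 ± 0.0444). TP53I3 was 3.19 times as high in H2122, and TNFRSF10A 1.92 times. EDA2R stood at 3.03, 2.9 and 3.29 FPKM in H2122 against 12.4, 13.6 and 12 in H460 (-1.75 ± 0.0605). CYFIP2 (-1.31 ± 0.049), CCNG1 (-1.16 ± 0.0395), FDXR (-0.88 ± 0.053), MDM4 (-0.84 ± 0.0652) and XPC (-0.75 ± 0.0443) were also lower in H2122. In none of these genes did the lines overlap. MDM2 was 0.16 ± 0.0506 higher in H2122. Levels in shGFP of FAS, PHLDA3, PLK2, TP53INP1, TRIAP1 and ACER2 did not pass the test between lines. With a common total FAS (0.19, limma adjusted p = 0.00701) and PHLDA3 (0.12, limma adjusted p = 0.0104) were called higher in H2122, FAS also with a replicate block (limma adjusted p = 0.0385), and PLK2 was called lower without H460 shGFP replicate 3 (-0.06, limma adjusted p = 0.047). SPATA18 and TNFRSF10B were called slightly higher in H2122 (0.17 and 0.11), SPATA18 not without H460 shGFP replicate 2 or H2122 shGFP replicate 2 (log2 0.14 to 0.15, limma adjusted p = 0.0547 to 0.0674) and TNFRSF10B not without H2122 shGFP replicate 1 or 2 (log2 0.10, limma adjusted p = 0.0547 to 0.0569).

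For the compounds, levels are given only as ratios within the compound libraries, because the gene lengths behind these columns are not those of the knockdown columns. The tests used log2(FPKM + 1) and a minimum of 1 FPKM, so calls and log2 differences still depend on those lengths. All 3 pairs of groups were compared at the single dose and time. Of 29 members tested, BPK29 raised 11 and lowered 6, where 50.4% of 11461 genes were called, 21.1% higher and 29.3% lower. With a common total the split was 16 and 4, where 31.8% of all genes were higher and 20.2% lower. With BPK9, 0 of the 29 were called by limma after adjustment over all genes, where 0.00873% of all genes, a single gene, were called. An absent call does not show that a member stayed level with BPK9. Adjusted only over the 3 pairs of groups, the limma p against DMSO was 0.000604 for GDF15 and 0.0048 for SERTAD1. It was 0.0243 for GADD45A, 0.027 for PHLDA3, 0.0298 for RPS27L and 0.0471 for EDA2R, and above 0.05 for the other tested members. That adjustment leaves out the number of genes, and its share of all genes was not computed. For BPK9 against DMSO the voom test on recovered reads called 1 member, GDF15 (log2 0.29, limma adjusted p = 0.0398). With voom 1.03% of 13151 genes were called higher and 1.01% lower. BPK29 against BPK9 gave 10 members higher and 7 lower (46.9% of all genes were called, 19.7% higher and 27.2% lower), or 14 and 4 with a common total, where 28.7% of all genes were higher and 20% lower. On the log2(FPKM + 1) scale, GDF15 was the 1 tested member called at 1.5 fold or more, both with BPK29 against DMSO (2.36% of all genes) and against BPK9 (1.91%). By the ratio of mean FPKM to DMSO, which that scale shrinks for low genes, SERTAD1 (1.51) and the untested TP53INP1 (1.60) and ACER2 (1.87) were also above 1.5 with BPK29.

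**Figure D4:**
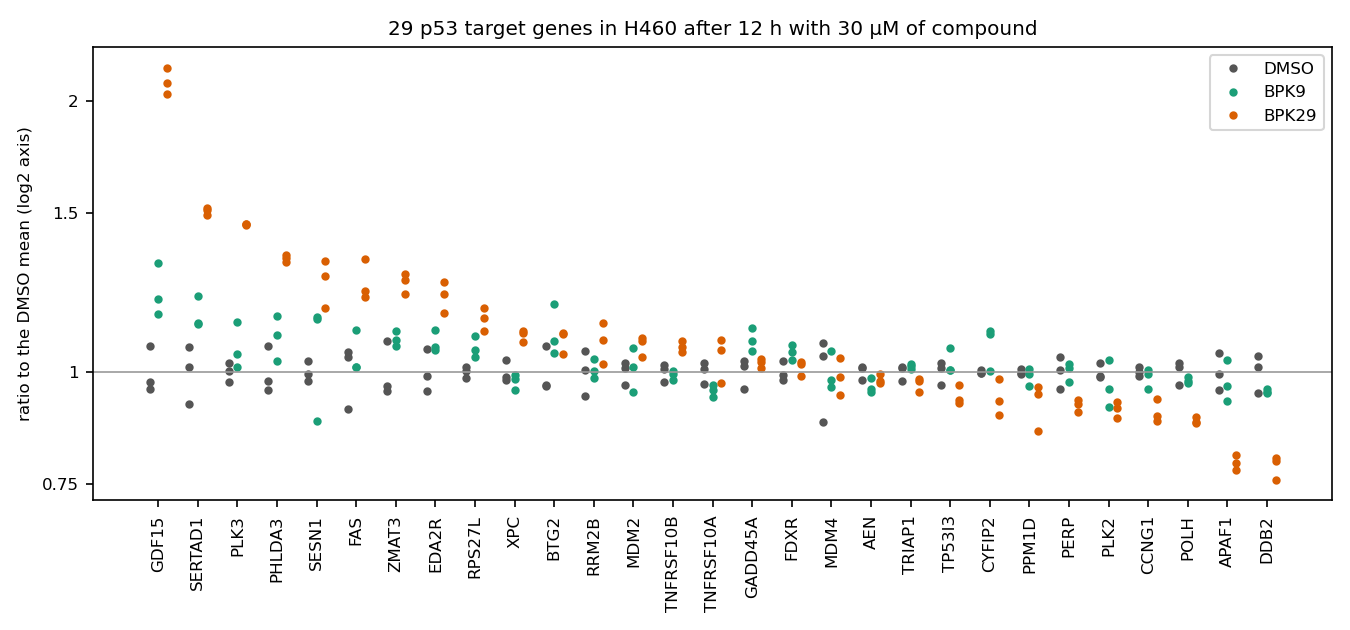
Ratio of each library to the mean of the DMSO libraries (log2 axis) for the 29 members that passed the minimum level, ordered by the mean change with BPK29; points are libraries, 3 each of DMSO, BPK9 and BPK29. GDF15 stands at 2.04 to 2.18 with BPK29 and 1.16 to 1.32 with BPK9, and APAF1 and DDB2 stand lowest with BPK29.

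GDF15 gave ratios to the DMSO mean of 2.04, 2.09 and 2.18 in the BPK29 libraries, 1.16, 1.32 and 1.21 with BPK9 and 1.07, 0.957 and 0.974 in DMSO itself. All BPK9 libraries lay above DMSO and below BPK29. The log2 difference from DMSO was 0.98 ± 0.0527 with BPK29 (limma adjusted p = 1.12e-06) and 0.26 ± 0.0527 with BPK9 (limma adjusted p = 0.115), the latter with a 95% interval of 0.15 to 0.38. The compounds differed by 0.72 ± 0.0527 (interval 0.60 to 0.83, limma adjusted p = 8.14e-06). SERTAD1 stood at 1.51, 1.49 and 1.52 with BPK29 and 1.21, 1.13 and 1.13 with BPK9, and the compounds differed by 0.32 ± 0.0482 (0.21 to 0.43). PLK3 stood at 1.46, 1.46 and 1.46 with BPK29 and 1.01, 1.14 and 1.05 with BPK9, a difference of 0.39 ± 0.0413 (0.30 to 0.49). PHLDA3 followed with 1.34, 1.35 and 1.33 and 1.03, 1.15 and 1.1, a difference of 0.29 ± 0.0482 (0.18 to 0.40). In these 3 genes the BPK29 libraries lay above every BPK9 and DMSO library.

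The lower members with BPK29 were led by DDB2 and APAF1. DDB2 stood at 0.803, 0.759 and 0.796 of the DMSO mean with BPK29 and 0.949, 0.958 and 0.947 with BPK9, with a difference between compounds of -0.25 ± 0.0379 (-0.34 to -0.17). APAF1 stood at 0.791, 0.808 and 0.779 and 0.964, 0.929 and 1.03, a difference of -0.28 ± 0.0436 (-0.38 to -0.19). FAS was higher with BPK29 than in DMSO (0.26 ± 0.0576) and than with BPK9 (0.21 ± 0.0576, interval 0.08 to 0.34), the latter call being lost without BPK29 replicate 3 (log2 0.18, limma adjusted p = 0.0521). ZMAT3 and EDA2R rose by 0.27 and 0.25 with BPK29. SESN1 was called at 0.21 ± 0.0694, a call lost without DMSO replicate 1 or 2 or BPK29 replicate 2 or 3 (log2 0.19 to 0.21, limma adjusted p = 0.0636 to 0.0893). MDM2 was not called with BPK29 (0.10 ± 0.0409, limma adjusted p = 0.0752), but was called with a common total (0.16, limma adjusted p = 0.00867), median-ratio scaling (0.12, limma adjusted p = 0.0358), voom (0.12, limma adjusted p = 0.00333), a replicate block (limma adjusted p = 0.0211), a fit of these groups alone (limma adjusted p = 0.0313) and without BPK9 replicate 1 or 3 (limma adjusted p = 0.0343 and limma adjusted p = 0.0422). Its difference between the compounds had an interval of -0.01 to 0.18. CDKN1A stood at 1.44, 1.51 and 1.5 with BPK29.

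TP53INP1, SPATA18, TRIM22 and ACER2 were under the minimum level in the compound columns, with 17 to 93 reads per library, and are given by ratio. TP53INP1 stood at 1.57, 1.76 and 1.47 with BPK29 and 0.977, 1.06 and 1.02 with BPK9. ACER2 stood at 1.86, 1.77 and 1.97 with BPK29, 0.996, 1.13 and 1.26 with BPK9 and 1.33, 0.764 and 0.905 in DMSO, where its spread was wide. The voom test on recovered reads called both higher with BPK29 (log2 0.71, limma adjusted p = 0.000168, and log2 0.94, limma adjusted p = 2.03e-05). It called TRIM22 lower (log2 -0.71, limma adjusted p = 0.009) and did not call SPATA18 (log2 -0.39, limma adjusted p = 0.068). Dose, time and setting differ between the compound and hairpin libraries, so their sizes are not compared.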

How the data were processed

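RNA libraries of 27 samples were analysed. The authors deposited 1 table of FPKM values (fragments per kilobase of transcript, scaled for depth) for 23710 symbols. STAR, featureCounts, DESeq2 and build hg19 are named, with no versions, in the submitters' processing notes. No source used here gives the annotation or strand setting, so overlapping genes cannot be told apart. Low values step in whole reads, which gave back whole reads for 100% of 12111 knockdown genes tested and 100% of 11544 compound genes (tolerance 0.02 reads). Totals were 16709893 to 24613434 and 19077604 to 24824626 reads per library. The factors behind the knockdown values matched median-ratio factors over both lines, and those behind the compound values were at most 1.04% apart from such factors. The median-ratio alternative computed these factors again within each fit. Of 12845 genes, 53.5% had lengths more than 2 fold apart between the column sets, so compound levels are given as ratios. The limma fits of the compound libraries still used the FPKM themselves, and 28 symbols hold no value there.

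limma 3.58.1 in R 4.3.3 was fitted on log2(FPKM + 1), with a variance trend, keeping genes that reached 1 FPKM in 3 or more fitted libraries, and a call needed a p under 0.05 after Benjamini-Hochberg adjustment. The 12 H460 knockdown, 6 H2122, 6 shGFP and 9 compound libraries were fitted separately, and 12 libraries for the difference between lines. In simulated data with 1.5-fold changes, 94% of 50 changed genes were found for shSNW1 against shNR0B1 and 69.4% of 49 for the difference between lines. The simulation had a fixed spread and changed only a small set of well-covered genes, unlike the data. These shares are therefore not the power of the real tests. Alternatives were another pseudocount, filters, scalings, voom on recovered reads, no trend, a fit of the compared groups alone, a replicate block and leaving out each library. All 33 members are named, grouped by role; members and lists were chosen with earlier results of these data known. The peak list of the NR0B1 ChIP was not used here. Values of 1 further gene in the fits are not reported here.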

Additional observations from a re-analysis of the deposited data

Results flagged for a closer look

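The response to NRF2 knockdown differed between the lines in 30 of the 33 members by the test of the difference itself (limma, 12 libraries), where 71.6% of all 12798 genes were called. Values here are the log2 change in H2122 minus that in H460, and line and sampling time cannot be told apart. Of the feedback genes, RPS27L differed by 1.26, PPM1D by 0.63, MDM2 by 0.62, CCNG1 by 0.37 and MDM4 by 0.23, with TRIAP1 at -0.27. Of the apoptosis genes, TP53INP1 differed by 1.90, APAF1 by 1.09, FAS by 0.71, ZMAT3 by 0.35, PERP by 0.30, TNFRSF10A by 0.30, PHLDA3 by 0.26 and TNFRSF10B by 0.14. TP53I3 and AEN stood at -0.85 and -0.76. Of the growth arrest genes, GDF15 differed by 1.83, TRIM22 by 1.76, BTG2 by 1.27, SERTAD1 by 0.84, SESN1 by 0.51, PLK3 by 0.34 and GADD45A by 0.25, with PLK2 at -0.34. The call for GADD45A was lost without H460 shGFP replicate 1 or 2, H460 shNRF2 replicate 3, H2122 shGFP replicate 1 or 3 or H2122 shNRF2 replicate 3 (log2 0.16 to 0.25, limma adjusted p = 0.0505 to 0.0746), and with no filter on low values (limma adjusted p = 0.0539). Of the repair and metabolic genes, DDB2 differed by 1.55, ACER2 by 1.249, FDXR by 0.78, RRM2B by 0.70, XPC by 0.54 and POLH by 0.18.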

How the results depend on the processing

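Counts are members called higher and lower. In H2122 NRF2 knockdown, 25 and 4 became 20 and 6 with median-ratio scaling and 20 and 8 with voom. With median-ratio scaling the log2 changes of CCNG1 (-0.13), FAS (-0.0115), SNW1 (-0.0413), GADD45A (-0.14) and POLH (-0.10) turned negative there, and with voom those of CCNG1 (-0.13), FAS (-0.0121), SNW1 (-0.0413), GADD45A (-0.14) and POLH (-0.13). With a minimum of 5 FPKM, which left 28 members to test, the lower members were 4 in place of 8 for SNW1 against shGFP. There 3578 of 8795 genes were lower. For SNW1 against NR0B1 the lower members were 3 in place of 5, where 3029 of 8795 genes were lower. BPK9 against DMSO gave 1 higher with voom, where 1.03% of all genes were called higher and 1.01% lower. BPK29 against BPK9 gave 4 lower with a common total, where 20% of all genes were lower. With voom it gave 16 higher of 33 members tested in place of 29, where 23.6% of all genes were higher. SNW1 turned to 0.057 for BPK29 against DMSO with a common total. The cause was not tested. No other alternative run here, besides leaving out a library, moved a count by over 1.5 times or turned a direction among called genes.

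Leaving out single libraries gave 10 to 12 higher and 15 to 19 lower for NRF2 in H460, 4 to 5 and 19 to 22 for NR0B1, 16 to 18 and 7 to 9 for SNW1, 24 to 25 and 5 for SNW1 against NR0B1, and 22 to 24 and 4 for NRF2 in H2122. Of 11778 to 11916 genes in the H460 fits, 4559 to 4856 were higher and 4482 to 4644 lower for NRF2. For NR0B1 these were 3654 to 3957 and 4122 to 4398, and for SNW1 3399 to 3664 and 4072 to 4328. SNW1 against NR0B1 gave 3645 to 4064 and 3804 to 4239 genes. In H2122, 5132 to 5628 of 11235 to 11515 genes were higher and 4237 to 4462 lower. Members tested fell to 32 there without an shNRF2 library. Leaving out libraries gave 25 to 26 members and 4 for the difference between lines, 9 to 11 and 15 to 16 for the shGFP libraries, 9 to 12 and 5 to 6 for BPK29, 0 and 0 for BPK9, and 8 to 10 and 6 to 8 for BPK29 against BPK9. For the difference, 4417 to 4770 of 12570 to 12753 genes were higher and 4110 to 4436 lower. For shGFP, 4333 to 5389 of 11205 to 11239 genes were higher and 4008 to 4841 lower. Members tested fell to 32 there without an H460 library. Of 11422 to 11445 genes, BPK29 gave 2031 to 2441 higher and 2966 to 3390 lower. BPK9 gave 0 to 1 and 1 to 2, and BPK29 against BPK9 1861 to 2267 and 2731 to 3100. Over single genes, 80 calls were lost, 22 were gained and 0 turned in 3645 such values.

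In the H460 knockdown libraries, correlations of same-numbered deviations ran from -0.305 to 0.283, and those of other pairs from -0.304 to 0.437. In H2122 same-numbered pairs ran from 0.0729 to 0.21 and the other pairs from -0.189 to -0.00261. In the compound libraries the ranges were -0.0204 to 0.196 and -0.137 to 0.0377. Same-numbered pairs thus stood higher in H2122, and whether the numbers mark a pairing was not tested. The main fits treat the libraries as unpaired. With a replicate block the counts were 11 and 18 for NRF2 in H460, 5 and 21 for NR0B1, 16 and 8 for SNW1, 24 and 5 for SNW1 against NR0B1, 23 and 4 for NRF2 in H2122, 26 and 4 for the difference between lines, 12 and 16 for the shGFP libraries, 13 and 6 for BPK29, 0 and 0 for BPK9 and 11 and 7 for BPK29 against BPK9. In the same order, all genes gave 4866 and 4661, 3951 and 4417, 3681 and 4365, and 3935 and 4145 of 11938. They gave 5751 and 4548 of 11710 in H2122, 4794 and 4388 of 12798 for the difference and 5419 and 4988 of 12087 for shGFP. The compounds gave 2448 and 3394, 0 and 1, and 2294 and 3164 of 11461. Depth limits TRIM22 most, with 34 reads in its lowest knockdown library.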
